A study of Mus musculus with 8 samples.

Results

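Extracellular proteases and their inhibitors were followed through the cell types of 2 KP mouse lung tumors. The set held 10 genes, chosen by symbol from the 27923 genes in the deposited tables, and all 10 were found in all 8 libraries: the matrix metalloproteinases Mmp2, Mmp8, Mmp9, Mmp12, Mmp13 and Mmp14, the tissue inhibitors Timp1, Timp2 and Timp3, and the membrane protease Adam8. KP mice carry p53 fl/fl alleles, among others, so that Cre recombinase deletes p53. They were chimeric mice made from KP embryonic stem cells, and Cre came from an adenovirus with the promoter of surfactant protein C, which is active in alveolar type II cells. Tumors were started at 12 weeks of age and taken 16 weeks later, 1 from each of 2 mice of different sex, so every group shares the genotype, the virus and the time point, while tumor, mouse and sex cannot be told apart. Sections of about 1 mm were incubated with a caged calcein dye. For the Healthy/Tumor Border, 1 library per tumor, the periphery was photoactivated, and cells were sorted that were positive for the uncaged dye and for the viability dye calcein violet. The Whole Tumor, 3 Seq-Well arrays per tumor, was the total population without photoactivation.

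Matrix metalloproteinases are zinc enzymes, mostly made as inactive precursors, that cut collagens, elastin, gelatin and many non-matrix proteins. TIMPs bind to the active site of these enzymes and block them, and Timp2 also helps Mmp14 to activate pro-Mmp2 at the cell surface. Neutrophils are known to store Mmp8 and Mmp9 in granules, macrophages are known for the elastase Mmp12, and fibroblasts for Mmp2 and Mmp14. Adam8, a transmembrane metalloprotease of leukocytes, sheds adhesion molecules and receptors and is not a matrix metalloproteinase.

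Of the set, 3 lie together in the metalloproteinase cluster of chromosome 9 and yet differed in the cell type that carried them, so their promoters are shown first. In GRCm38, the assembly of mm10, Mmp13 lies at chr9:7272514-7283331, Mmp12 at chr9:7344381-7369499 and Mmp8 at chr9:7558456-7568485, all on the plus strand. Mmp1b, Mmp3 and Mmp10 lie between Mmp12 and Mmp8, and Mmp27, Mmp20 and Mmp7 follow. The sequences run 5′ to 3′ from 250 bases before to 50 bases after a transcription start in RefSeq (GRCm38.p6), at chr9:7558179-7558478 for Mmp8, chr9:7347124-7347423 for Mmp12 and chr9:7272264-7272563 for Mmp13. Capitals mark matches to the AP-1 motif TGANTCA and to the TATA box TATAAA, searched on both strands.
Mmp8: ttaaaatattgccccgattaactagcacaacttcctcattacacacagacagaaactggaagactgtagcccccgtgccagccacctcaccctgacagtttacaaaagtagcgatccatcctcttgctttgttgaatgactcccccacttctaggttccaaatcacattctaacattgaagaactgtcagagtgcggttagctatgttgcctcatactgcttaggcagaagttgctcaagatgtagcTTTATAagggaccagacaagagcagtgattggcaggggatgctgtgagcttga
Mmp12: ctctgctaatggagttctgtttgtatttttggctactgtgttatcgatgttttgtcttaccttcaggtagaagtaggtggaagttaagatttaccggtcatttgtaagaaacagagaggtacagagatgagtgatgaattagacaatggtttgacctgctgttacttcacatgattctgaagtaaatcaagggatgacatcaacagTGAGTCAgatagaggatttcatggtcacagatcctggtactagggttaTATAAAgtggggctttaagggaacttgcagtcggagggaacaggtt
Mmp13: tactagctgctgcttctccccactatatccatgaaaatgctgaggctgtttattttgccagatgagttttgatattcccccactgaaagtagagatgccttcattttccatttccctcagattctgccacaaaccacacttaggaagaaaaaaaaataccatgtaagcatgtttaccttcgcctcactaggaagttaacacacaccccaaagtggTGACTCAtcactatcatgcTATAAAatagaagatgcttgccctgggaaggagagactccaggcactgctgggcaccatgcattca
The Mmp13 window held TGANTCA at position -35 and TATAAA at -16 from the start, and the Mmp12 window held them at -44 and 5. The Mmp8 window held no TGANTCA, and TATAAA only as its reverse complement at -3. RefSeq gives Mmp12 a second start, whose window at chr9:7344147-7344446 held neither motif. Across 32817 mouse promoter windows of 300 bases, 7.81% held TGANTCA and 13.6% held TATAAA. Promoter windows were matched for 8 of the 10 genes, and those of Mmp14, Timp1, Timp2, Timp3 and Adam8 held neither motif. A match describes these letters and is not evidence of binding.

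The other genes lie apart: Mmp2 at chr8:92827291-92853420, Mmp9 at chr2:164940780-164955850, Mmp14 at chr14:54431612-54445364, Timp1 at chrX:20870166-20874735, Timp2 at chr11:118301069-118355740, Timp3 at chr10:86300372-86349506 and Adam8 at chr7:139978932-139992562. Timp1 lies within Syn1 and Timp3 within Syn3 on the other strand. Timp2 overlaps Cep295nl on its own strand, Adam8 overlaps Gm16201 and Mir7062, and the 3′ end of Mmp12 overlaps Mmp1b, which had 3 UMIs in all. How the counting treated such overlaps was not given in the sources used here.

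The tables held raw counts of unique molecular identifiers (UMIs) in 4343 cell barcodes, of which the 3894 with at least 200 genes were kept. The kept cells of a library held between 374369 and 2019162 UMIs in all, with medians of 675.5 to 2525.5 UMIs per cell, both lowest in array 2 of Tumor 2. In all 8 tables the names of the cells and the labels of the samples give opposite tumor numbers, and the labels were followed. The labels call the samples outer and rest, which were taken as the Border and the Whole Tumor. So taken, these held 686 and 1634 barcodes in Tumor 1 and 534 and 1489 in Tumor 2. These are the cell numbers that the study gives for its Healthy/Tumor Border and Whole Tumor groups. Levels of Xist, in counts per 1000000 UMIs (CPM), were 399 to 609 for Tumor 1 and 2.04 to 2.67 for Tumor 2 as labelled, with no library in between. Libraries shared 10 barcodes, and 57 cells called doublets (1.46%) were kept. Each cell was placed in a class by marker genes that include none of the 10 genes: 3397 cells were placed in 11 classes and 497 were left ungated. The class called satellite-rich, 579 cells with a median of 358 UMIs, is defined by satellite-repeat transcripts and is no cell type. Each class carried its own markers, but only 17 monocyte-like cells were found. B-like cells should lack most of these proteases, and their levels are given as a background. Whether it comes from free RNA was not tested. Most of these cells came from Tumor 2, with 24 in the Whole Tumor of Tumor 1 and 103 in that of Tumor 2. For the metalloproteinases together they stood at 48.0 CPM in the former, from 5 UMIs, and 9.81 in the latter, from 2. The study itself described no separate neutrophil cluster, and the class called neutrophil-like here rests on 14 markers such as Csf3r, Cxcr2, S100a8 and S100a9.

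The genes differed in the classes that carried their summed UMIs. Neutrophil-like cells held 83.7% of the UMIs of Mmp9 and 69.5% of those of Mmp8. Macrophage-like cells held 86.2% of Mmp12 and 84.6% of Mmp13. Fibroblast-like cells, only 44 cells, held 83.8% of Mmp2, and shared Timp3 with endothelial-like cells. Mmp14, Timp2 and Adam8 came from several classes. The set ranged from 194 UMIs for Timp1 to 3889 for Adam8 over all kept cells. Levels are given below as CPM over the summed UMIs of a class, with exact 95% Poisson intervals that cover counting error only. Each UMI tags 1 molecule at its 3′ end, so levels were not divided by gene length. In summed counts, fewer cells that express a gene and less RNA per cell cannot be told apart.

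**Figure D1:**
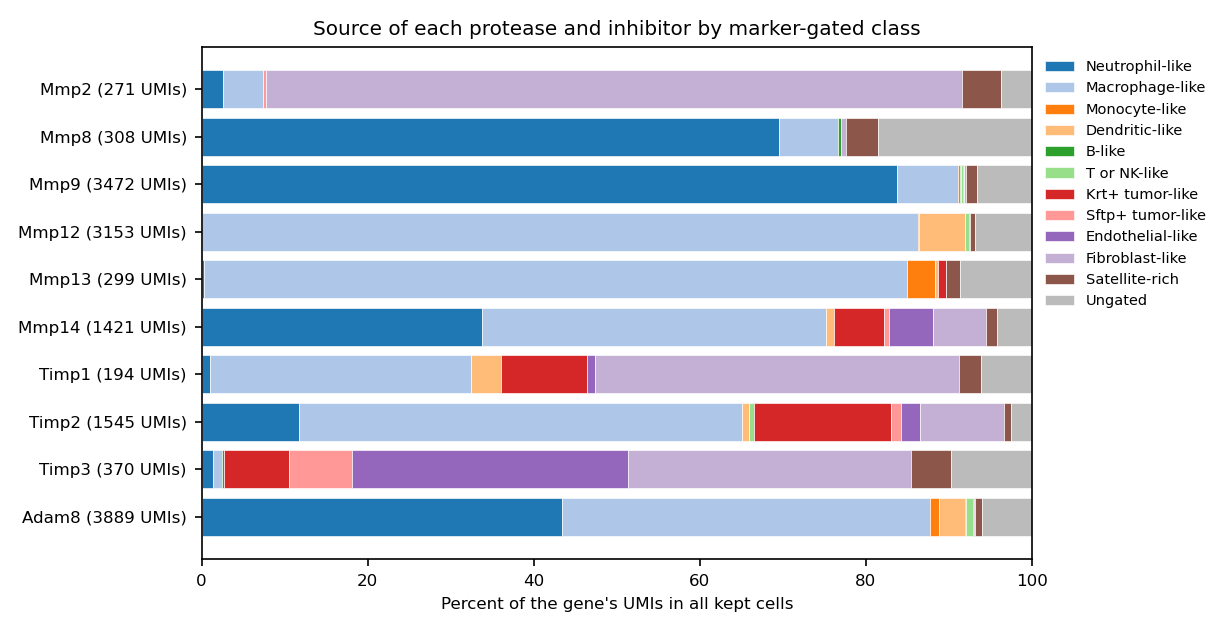
Percent of the UMIs of each gene (horizontal axis) found in each marker-gated class, over all kept cells of the 8 libraries; the number of UMIs stands beside each gene. Neutrophil-like cells fill most of the bars of Mmp8 and Mmp9, macrophage-like cells those of Mmp12 and Mmp13, and fibroblast-like cells that of Mmp2, while Mmp14, Timp2 and Adam8 are divided among several classes.

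**Figure D2:**
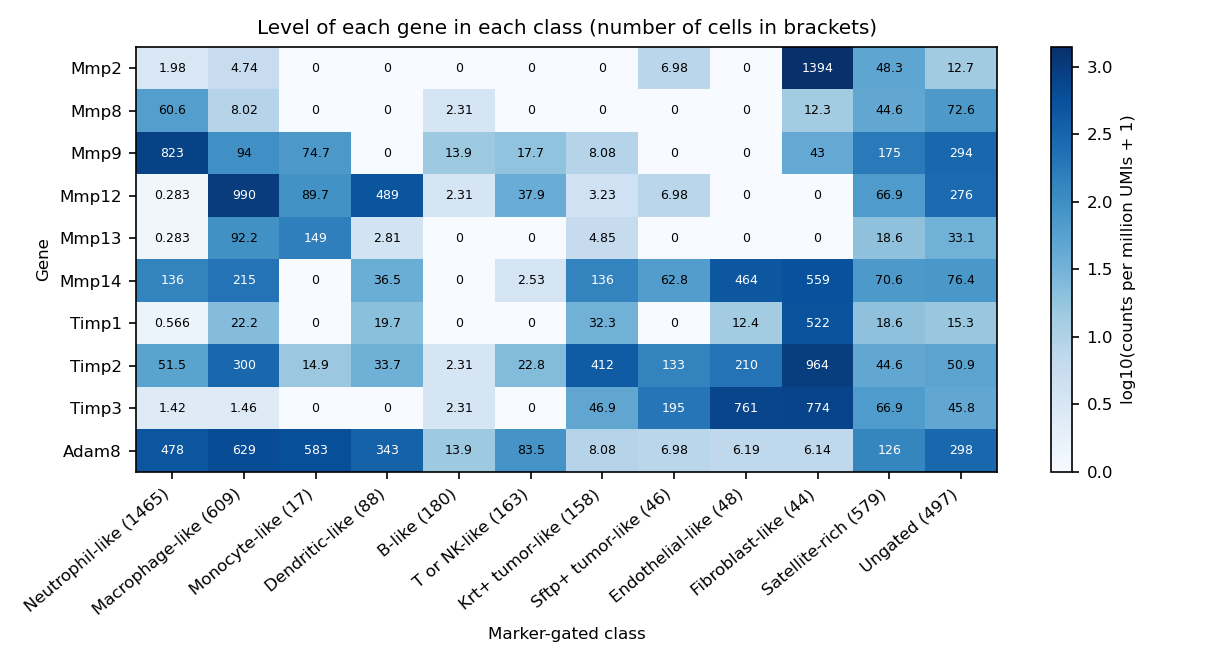
Level of each gene (vertical axis) in each class (horizontal axis), as CPM over the summed UMIs of the class, printed in each field; the color is log10(CPM + 1). The fields stand out for Mmp9 in neutrophil-like cells at 823 CPM, for Mmp12 in macrophage-like cells at 990 and for Mmp2 in fibroblast-like cells at 1394.

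Mmp9, gelatinase B, which cuts denatured collagens and type IV collagen, reached 823 CPM in neutrophil-like cells (95% interval 793 to 854). It had a UMI in 41.2% of these cells, and in 32.6% after each cell was thinned to 1000 UMIs, which kept 1232 of 1465 cells. Macrophage-like cells stood at 94.0 CPM, of which 195 of 258 UMIs came from 1 cell, described further on. Without that cell they stood at 23.1. B-like cells stood at 13.9 CPM with a UMI in 1.11% of cells, where a cell had 1876.5 UMIs at the median, against 2130 for neutrophil-like and 3333 for macrophage-like cells. Dendritic-like, Sftp+ tumor-like and endothelial-like cells had no Mmp9 UMI. Mmp8, the neutrophil collagenase, reached 60.6 CPM in neutrophil-like cells (52.8 to 69.3) and was found in 6.48% of them. It stood at 8.02 in macrophage-like cells (5.02 to 12.1) and at 0 in dendritic-like and Krt+ tumor-like cells. A further 57 of its 308 UMIs lay in ungated cells, up to 20 in 1 cell, at 72.6 CPM (55.0 to 94.0). Satellite-rich barcodes stood at 44.6 CPM (23.0 to 77.9), from 12 UMIs. The neutrophil-like level of Mmp8 thus did not stand apart from these 2. The ratio of neutrophil-like to macrophage-like cells was 8.75 for Mmp9 (95% counting interval 7.70 to 9.98), and 35.7 without the 1 cell (27.8 to 46.6). In the Whole Tumor it was 22.0 in Tumor 1 (16.7 to 29.7) and 219 in Tumor 2 (60.2 to 1813), where macrophage-like cells had 2 UMIs. At the Border of Tumor 2 the Mmp9 ratio was 1.86 (1.41 to 2.42), and 359 without the 1 cell (62.5 to 14340). At that of Tumor 1 it ran the other way, at 0.277 (0.145 to 0.608), from only 2 macrophage-like cells with 9 UMIs. For Mmp8 the ratio over all libraries was 7.56 (4.87 to 12.3). It was 2.85 in the Whole Tumor of Tumor 1 (0.589 to 27.1), from 9 and 2 UMIs, so that no difference was detectable there, and 15.1 in that of Tumor 2 (8.61 to 29.0).

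Mmp12, the macrophage elastase, reached 990 CPM in macrophage-like cells (954 to 1028). It had a UMI in 35.3% of them and up to 186 UMIs in 1 cell, so its UMIs were unevenly spread. Dendritic-like cells followed at 489 CPM (419 to 567), from 20 of 88 cells. Neutrophil-like cells had 1 Mmp12 UMI among 3530851, which puts macrophage-like cells 3497 times higher with a counting interval of 627 to 138185. B-like cells also had 1 UMI. Mmp13, collagenase 3, stood at 92.2 CPM in macrophage-like cells (81.2 to 104), in 48 of 609 cells, and had 1 UMI in neutrophil-like cells. Monocyte-like cells stood at 149 CPM, but all 10 of their UMIs were in 1 cell. Of the 48 macrophage-like cells with Mmp13, 35 also had Mmp12, and these were 16.3% of the 215 cells with Mmp12. The neighbours on chromosome 9 thus had different carriers: Mmp12 and Mmp13 were at 1 UMI each in the class that held 214 of the 308 UMIs of Mmp8. Mmp3, Mmp10 and Mmp1b, which lie between them, had 2, 11 and 3 UMIs in all.

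Mmp14, a membrane-anchored metalloproteinase that activates pro-Mmp2 and cuts fibrillar collagen, was highest in fibroblast-like and endothelial-like cells when the libraries were summed. It stood at 559 CPM in fibroblast-like cells (450 to 686) and 464 in endothelial-like cells (365 to 582), and these intervals overlap. The endothelial-like level came mostly from Tumor 1, with 722 CPM from 11 cells in its Whole Tumor against 157 from 35 cells in that of Tumor 2, where macrophage-like cells stood at 168. Macrophage-like cells followed at 215 (198 to 233), then neutrophil-like cells at 136 (124 to 149) and Krt+ tumor-like cells at 136 (108 to 168). Since myeloid cells were far more numerous, 41.4% of its UMIs came from macrophage-like and 33.8% from neutrophil-like cells. No B-like cell had a UMI of Mmp14. Mmp2, gelatinase A, reached 1394 CPM in fibroblast-like cells (1219 to 1588), in 19 of 44 cells. Array 2 of Tumor 1 alone held 170 of the 227 UMIs, in 6 of its 10 fibroblast-like cells. Macrophage-like cells stood at 4.74 CPM and neutrophil-like cells at 1.98. Of the 19 fibroblast-like cells with Mmp2, 12 also had Mmp14 and 12 had Timp2, the partners in its activation, out of 22 and 26 cells with these genes. Timp3 was found in 15 of the 19.

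Over the summed libraries, fibroblast-like cells had the highest level of each of the 3 inhibitors, and the order of the other classes differed by gene. Timp2 stood at 964 CPM in fibroblast-like cells (819 to 1128), 412 in Krt+ tumor-like cells (363 to 466), 300 in macrophage-like cells (280 to 321) and 210 in endothelial-like cells (146 to 294). The order of the last of these turned between the tumors: endothelial-like cells stood at 33.9 CPM, 3 UMIs, against 242 for macrophage-like cells in the Whole Tumor of Tumor 1, and at 441 against 171 in that of Tumor 2. Fibroblast-like cells stood at 502 and 1481. Sftp+ tumor-like cells stood at 133 and neutrophil-like cells at 51.5. Macrophage-like cells held 53.3% of all Timp2 UMIs and neutrophil-like cells 11.8%. Timp3, which binds to the matrix and also blocks several ADAM proteases, stood at 774 CPM in fibroblast-like cells (645 to 922) and 761 in endothelial-like cells (633 to 908), which do not differ beyond counting error. Both were lower in the Whole Tumor of Tumor 1, at 310 and 248 CPM, than in that of Tumor 2, at 1153 and 1438. Sftp+ tumor-like cells followed at 195 (130 to 282). Myeloid cells were near the floor for Timp3, with 5 UMIs in neutrophil-like and 4 in macrophage-like cells. Timp1, an inducible inhibitor that also binds pro-Mmp9, reached 522 CPM in fibroblast-like cells (417 to 646), at 945 in the Whole Tumor of Tumor 1 and 197 in that of Tumor 2. It stood at 32.3 in Krt+ tumor-like cells (19.7 to 49.9) and 22.2 in macrophage-like cells (17.0 to 28.6), with overlapping intervals, and at 2 UMIs in neutrophil-like cells. The macrophage-like level was 39.2 times the neutrophil-like level for Timp1 (10.4 to 331) and 5.82 times for Timp2 (4.95 to 6.87). For Timp2 it was 7.53 times in the Whole Tumor of Tumor 1 (5.53 to 10.4), 1.56 times in that of Tumor 2 (1.20 to 2.05) and 7.78 times at the Border of Tumor 2 (4.41 to 15.2). Krt+ tumor-like values come almost wholly from Tumor 1, with 144 cells in its Whole Tumor arrays and 9 at its Border against 4 and 1 in Tumor 2.

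Adam8 was found in myeloid cells of every kind. It stood at 629 CPM in macrophage-like cells (599 to 659), 583 in the 17 monocyte-like cells (415 to 797), 478 in neutrophil-like cells (456 to 501) and 343 in dendritic-like cells (285 to 409). These sums mix the tumors, and 16 of the 17 monocyte-like cells came from the Whole Tumor of Tumor 2. There monocyte-like cells stood at 594 CPM, macrophage-like cells at 417, dendritic-like cells at 388 and neutrophil-like cells at 1525. In the Whole Tumor of Tumor 1, macrophage-like cells stood at 1101, dendritic-like cells at 298 and neutrophil-like cells at 107. T or NK-like cells stood at 83.5 (57.5 to 117) with a UMI in 14.7% of cells, against 13.9 CPM and 1.11% in B-like cells. Krt+ tumor-like, Sftp+ tumor-like, endothelial-like and fibroblast-like cells all stood at or below 8.08 CPM. The tumor-like and stromal classes thus had Timp2, Timp3 and Mmp14 with hardly any Adam8, and the myeloid classes had Adam8 with little or no Timp3.

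Summed over the 6 metalloproteinases and 3 TIMPs, the inhibitors made up 4.98% of the UMIs in neutrophil-like cells, 18.7% in macrophage-like cells and 52.9% in fibroblast-like cells. They made up 67.9% in endothelial-like cells, 76.4% in Krt+ tumor-like cells and 81.0% in Sftp+ tumor-like cells. These shares differed between the tumors, at 29.7% in the Whole Tumor of Tumor 1 and 92.3% in that of Tumor 2 for endothelial-like cells, and at 35.5% and 73.2% for fibroblast-like cells. Within neutrophil-like cells the share was 2.47% in the Whole Tumor of Tumor 1 and 14.1% in that of Tumor 2, and 3.82% and 9.45% at the Border. These are shares of molecules counted and not of protein or activity. In single neutrophil-like cells, 48 of the 95 cells with Mmp8 also had Mmp9 and 65 had Adam8, but 1 had Mmp14. Of the 210 cells with Mmp14, 119 had Mmp9 and 36 had Adam8. These cells come from different tumors and subclasses in unequal numbers.

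Which class carried a gene was tested in the 7 libraries with at least 20 cells of each class, with each library as its own control. This leaves out the Border of Tumor 1, which had 2 macrophage-like cells. Of the 10 genes, 5 passed the filter on low counts. By the quasi-likelihood test of edgeR, with p-values adjusted over all genes (Benjamini-Hochberg), 4 of the 5 differed between neutrophil-like and macrophage-like cells, where 46.2% of all genes tested did. Mmp9 was higher in neutrophil-like cells by 4.74 on the log2 scale (SE 0.76, adjusted p = 0.000414), in 7 of 7 libraries. In CPM per library it stood at 1356, 1035 and 1221 in the neutrophil-like cells of the Tumor 1 arrays, at 444 at the Border of Tumor 2 and at 441, 454 and 478 in the Tumor 2 arrays. In macrophage-like cells it stood at 62.2, 62.2 and 23.2, at 239, and at 0, 0 and 3.53, so the classes did not overlap within either tumor. Mmp9 passed the filter on low counts through neutrophil-like cells, as its macrophage-like levels alone would not have passed. Its call is therefore no independent result and its levels are a description. The 14 neutrophil markers together took 5.65 to 15.2 of every 10000 UMIs in macrophage-like cells of these libraries and 111 to 367 in neutrophil-like cells.

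Mmp12, also among the 4, had no UMI in the neutrophil-like cells of any of the 7 libraries against 618 to 1332 CPM in macrophage-like cells. It passed the filter through macrophage-like cells alone, so its call is no independent result and its levels are a description. Mmp14 was lower by a fitted -1.94 (SE 0.55, adjusted p = 0.0132) and Timp2 by -1.86 (SE 0.47, adjusted p = 0.00706). Within Tumor 1, Mmp14 was lower by -0.58 (adjusted p = 0.0196, edgeR) and Timp2 by -3.01 (adjusted p = 1.92e-08). Within Tumor 2, Mmp14 was lower by -4.14 (adjusted p = 4.07e-06) and Timp2 by -1.11 (adjusted p = 0.0250). Their sizes thus differed between the tumors while the direction did not. In Tumor 2, Mmp14 passed the filter through macrophage-like cells alone, so its call there is no independent result. Over the 7 libraries, its neutrophil-like levels alone would not have passed the filter, so that call is no independent result either. Adam8 did not pass the test (-0.19, SE 1.11, adjusted p = 0.906). The large error of Adam8 goes with opposite directions in the tumors. Within Tumor 1, where 45.3% of genes differed, it was lower in neutrophil-like cells by -3.60 (SE 0.17, adjusted p = 3.30e-11), and within Tumor 2, where 63.5% differed, it was higher by 1.77 (SE 0.26, adjusted p = 3.35e-05).

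The class difference itself changed between the tumors for 3 of 8 genes tested, where 22.5% of all genes did, in a comparison added after the data were seen. Of the 8, Mmp12 and Mmp13 had no UMI in the neutrophil-like cells of these libraries, so no change could be called for them. For Adam8 the difference of the differences, Tumor 2 minus Tumor 1, was 5.66 on the log2 scale (SE 0.37, adjusted p = 7.40e-11). In macrophage-like cells Adam8 stood at 1030, 1083 and 1204 CPM in the Tumor 1 arrays, at 307 at the Border of Tumor 2 and at 329, 405 and 454 in its arrays. In neutrophil-like cells it stood at 74.5, 115 and 113 in the Tumor 1 arrays, at 661 at the Border of Tumor 2 and at 1322, 1275 and 1645 in its arrays. The order of the classes was thus turned over in every library between the tumors. For Mmp14 the difference was -3.27 (SE 0.54, adjusted p = 0.000105) and for Timp2 it was 2.16 (SE 0.53, adjusted p = 0.00476). By source, macrophage-like cells held 80.3% of Adam8 in the Whole Tumor of Tumor 1 (95% interval 78.1 to 82.4%), and neutrophil-like cells held 65.3% in that of Tumor 2 (63.1 to 67.5%). The shares of neutrophil and macrophage subclasses differed between the tumors as well, as given next, and their part in these differences was not tested.

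Subclasses were gated by their own markers, again without the 10 genes. Mature-type neutrophil-like cells (728), led by Retnlg, Asprv1 and Rdh12, and Siglec-F-type cells (560), led by Adamdec1, Rab15, Siglec5 and Ltc4s, differed in their proteases. Mmp8 stood at 146 CPM in mature-type (127 to 167) and 3.94 in Siglec-F-type cells (1.59 to 8.13), and 197 of its 203 mature-type UMIs came from Tumor 2. Adam8 stood at 1053 against 85.1. Mmp14 had the opposite order, at 38.1 (28.5 to 49.8) against 214 (193 to 237). Mmp9 was at 571 in mature-type and 1012 in Siglec-F-type cells. These sums mix the tumors: mature-type cells made up 93.2% of the neutrophil-like cells in the Whole Tumor of Tumor 2 but 18.2% in that of Tumor 1, and Siglec-F-type cells 2.64% and 64.4%. At the Border the mature-type share was 64.8% in Tumor 2 and 39.1% in Tumor 1. The Y-linked gene Ddx3y was among the leading genes of mature-type cells, which goes with the unequal shares from the tumors.

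The subclasses were therefore compared within the 4 libraries of Tumor 1, the libraries with at least 20 cells of each. There 8.88% of genes differed and 2 of 3 genes of the set did (edgeR). Adam8 was lower in Siglec-F-type cells by -2.23 on the log2 scale (SE 0.32, adjusted p = 1.93e-05), at 94.5, 43.6, 100 and 36.7 CPM (Border, then arrays 1 to 3) against 294, 124, 257 and 426 in mature-type cells, so that the subclasses did not overlap. Mmp14 was higher in Siglec-F-type cells by 1.18 (SE 0.34, adjusted p = 0.0247), at 228, 166, 251 and 176 against 108, 74.6, 56.0 and 37.0, again without overlap. This call was lost with array 2 left out (1.01, adjusted p = 0.202) and under 4 of the other settings. Mmp9 did not pass the test (0.09, SE 0.24, adjusted p = 0.882). It stood at 744, 1588, 1057 and 1136 CPM in Siglec-F-type cells and at 526, 771, 604.5 and 1927 in mature-type cells (Border, then arrays 1 to 3), higher in Siglec-F-type cells in all but array 3. Mmp8 was not tested there, with 1 UMI in mature-type and 4 in Siglec-F-type cells at the Border and 5 and 2 in the arrays.

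**Figure D3:**
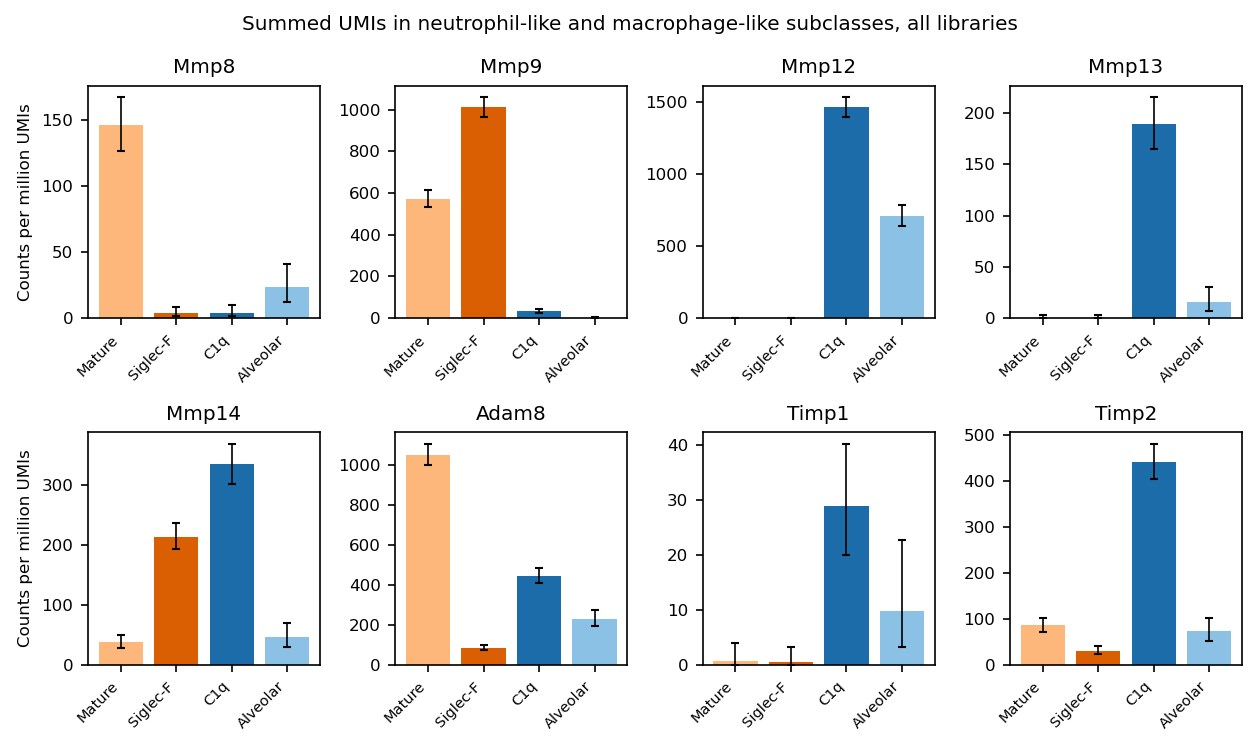
CPM (vertical axis) of 8 genes in 2 neutrophil-like subclasses (orange) and 2 macrophage-like subclasses (blue), over the summed UMIs of all libraries; lines are exact 95% Poisson intervals. Mmp8 has 1 high bar, in mature-type cells, Mmp13 has 1 high bar in C1q cells, and Adam8 stands at 1053 CPM in mature-type and 85.1 in Siglec-F-type cells; 1 further macrophage-like subclass and the cells of no subclass are not drawn, so the bars give no order over all subclasses.

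Among macrophage-like cells, the C1q subclass (243 cells, led by Cx3cr1 and Ms4a7) stood above alveolar cells (107, led by Car4 and Ear2) for Mmp12, Mmp13 and Mmp14 over the summed libraries. Mmp12 stood at 1465 CPM in C1q cells (1397 to 1536) and 712 in alveolar cells (641 to 789). Macrophage-like cells of no subclass stood at 1525 (1388 to 1673). For Mmp12 the order turned between the tumors. In the Whole Tumor of Tumor 2, C1q cells stood at 1068, alveolar cells at 599 and cells of no subclass at 483, and at its Border they stood at 1500, 715 and 1081. In the Whole Tumor of Tumor 1 they stood at 2265, 4257 and 2565, from 28, 4 and 40 cells. Mmp13 stood at 189 in C1q cells (165 to 215), which held 223 of the 253 macrophage-like UMIs, against 15.5 in alveolar cells. Mmp14 stood at 336 in C1q and 46.6 in alveolar cells, and Timp2 at 441 and 73.7. Adam8 stood at 446 in C1q cells and 231 in alveolar cells. C1q cells made up 13.3% of macrophage-like cells in the Whole Tumor of Tumor 1 and 41.1% in that of Tumor 2, and alveolar cells 1.90% and 38.6%. Within C1q cells Adam8 was at 822 CPM in the Whole Tumor of Tumor 1, from 28 cells, and at 534 in that of Tumor 2, from 97 cells. No test was made between these subclasses.

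Neutrophil-like cells differed strongly between the tumors in the Whole Tumor arrays, where all 5 genes tested differed, as did 49.4% of all genes. Each tumor is 1 mouse and the arrays are technical, so these p-values measure the spread between arrays. Mmp8 stood at 6.47, 2.29 and 13.5 CPM in the Tumor 1 arrays and at 187, 290 and 202 in the Tumor 2 arrays. The arrays did not overlap, and the log2 difference was 5.97 (SE 0.40, adjusted p = 6.12e-27, edgeR), or 36.2 times in plain CPM (18.6 to 80.5). Mmp8 passed the filter on low counts through Tumor 2 alone, so its call is no independent result. Adam8 was higher in Tumor 2 by 4.63 (SE 0.24, adjusted p = 1.64e-35), or 14.3 times in CPM. Timp2 was higher by 2.57 (SE 0.34, adjusted p = 2.12e-10), from 45.3, 24.0 and 40.5 CPM in Tumor 1 to 160, 58.0 and 102 in Tumor 2.

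Mmp14 was lower in Tumor 2, from 146, 228 and 151 CPM in the Tumor 1 arrays to 5.51, 0 and 3.84, that is 300 UMIs against 3. The log2 difference was -4.63 (SE 0.55, adjusted p = 1.56e-12, edgeR) and the level in Tumor 1 was 51.9 times higher, with a counting interval of 17.6 to 253. Mmp14 passed the filter on low counts through Tumor 1 alone, so its call is no independent result. Mmp9 was lower by -0.53 (SE 0.21, adjusted p = 0.0257), against a median of -0.32 over all genes tested, and this call was lost under 7 of 17 alternatives. With library size it was lower by -1.42 (adjusted p = 7.42e-09), and in plain CPM the level in Tumor 1 was 2.45 times that in Tumor 2 (2.19 to 2.75). Among mature-type cells alone, a comparison added after the data were seen, 3 of 5 genes differed, where 32.2% of all genes did. By edgeR these were Adam8 (2.87, adjusted p = 5.50e-07), Mmp8 (3.50, adjusted p = 2.81e-05) and Mmp14 (-3.15, adjusted p = 0.0195). Here too, Mmp8 passed the filter through Tumor 2 alone and Mmp14 through Tumor 1 alone, so their calls are no independent results. Timp2 (1.49, adjusted p = 0.0540) and Mmp9 (-0.71, adjusted p = 0.1003) did not pass. Neutrophil markers as a whole also stood higher in Tumor 2, at 344 to 367 of every 10000 UMIs of neutrophil-like cells in its arrays against 111 to 132 in those of Tumor 1, and macrophage markers took 5.60 to 7.93 in both.

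**Figure D4:**
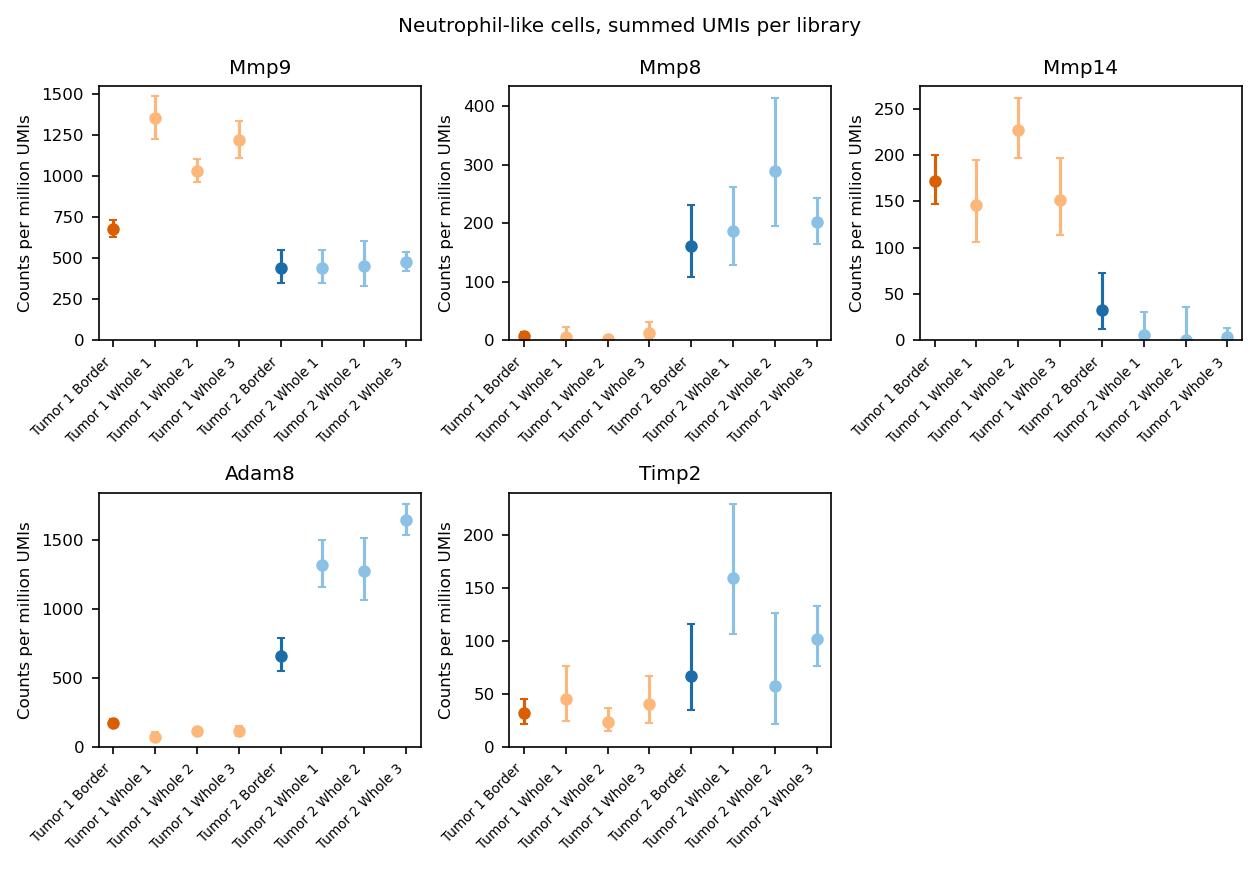
CPM (vertical axis) of 5 genes in the summed neutrophil-like cells of each library (horizontal axis), orange for Tumor 1 and blue for Tumor 2, darker for the Healthy/Tumor Border; lines are exact 95% Poisson intervals. Adam8 and Mmp8 are high in all 4 libraries of Tumor 2 and Mmp14 in all 4 of Tumor 1, and the Border of Tumor 2 lies between its arrays and Tumor 1 for Adam8 and Mmp14.

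The Border was then set against the Whole Tumor in neutrophil-like cells, in 1 fit over all 8 libraries. Each Border is 1 library, so these p-values rest on the spread between the technical arrays, and a change at the Border cannot be told apart from a difference of that library. Adam8 was the gene of the set that passed the test, 1 of 5 in each tumor, where 9.87% of all genes passed in Tumor 1 and 9.24% in Tumor 2. In Tumor 1 it rose from 74.5, 115 and 113 CPM in the arrays to 176 at the Border, a log2 change of 1.31 (SE 0.30, adjusted p = 0.000731, edgeR). In Tumor 2 it fell from 1322, 1275 and 1645 to 661, a log2 change of -1.52 (SE 0.32, adjusted p = 0.000365). The changes differed between the tumors by -2.83 (SE 0.44, adjusted p = 2.27e-07), Tumor 2 minus Tumor 1, again for 1 of 5 genes, where 11.5% of all genes differed. The share of mature-type cells, which had more Adam8, moved in the same directions, from 18.2% in the Whole Tumor to 39.1% at the Border in Tumor 1 and from 93.2% to 64.8% in Tumor 2. The 14 neutrophil markers together were also lower in these cells at the Border of Tumor 2, at 196 of every 10000 UMIs against 344 to 367 in its arrays, while at the Border of Tumor 1 they took 127, within the 111 to 132 of its arrays. Their part in the changes was not tested.

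Among mature-type cells alone, added after the data were seen, Adam8 stood at 294 CPM at the Border against 124, 257 and 426 in the arrays of Tumor 1, and at 881 against 1366, 1330 and 1753 in Tumor 2. There 0 of 5 genes were called by edgeR in either tumor or for the difference, with 1 of 5 at an unadjusted p under 0.05 in each of the 3 comparisons, where 1.61%, 2.01% and 1.83% of all genes were called. The changes of Adam8 were then 0.42 (SE 0.46, adjusted p = 0.742) in Tumor 1 and -0.98 (SE 0.44, adjusted p = 0.272) in Tumor 2. In cells with at least 500 genes, the changes were 1.24 (adjusted p = 0.190) and -1.38 (adjusted p = 0.202), close to those over all cells in size but past the threshold in neither tumor, and their difference passed it (-2.62, adjusted p = 0.0341).

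The other 4 genes did not pass at either Border with TMM. Mmp14 stood at 33.3 CPM at the Border of Tumor 2, 6 UMIs, against 3 UMIs in its 3 arrays, a log2 change of 2.66 (SE 1.02, adjusted p = 0.0858). With library size in place of TMM it passed at this Border (3.08, adjusted p = 0.0331) and in the difference between the tumors (3.17, adjusted p = 0.0242). In Tumor 1 it stood at 173 against 146 to 228. Mmp9 stood at 680 CPM at the Border of Tumor 1, below the arrays at 1035 to 1356, but with TMM normalization the change was -0.27 (SE 0.27, adjusted p = 0.609), and with plain library size it was -0.84 (adjusted p = 0.0120). The scaling mattered in these comparisons: TMM moved the median change of all genes by 0.57 in Tumor 1 and by -0.44 in Tumor 2. Of the genes called, 81.8% were higher at the Border of Tumor 1 with TMM and 15.6% with library size, and 40.8% and 78.8% in Tumor 2. Adam8 kept both its directions and calls with library size (0.73, adjusted p = 0.0474, and -1.10, adjusted p = 0.00564).

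In macrophage-like cells the Border could be compared in Tumor 2, where 161 such cells were found. There 2 of 7 genes passed the test and 2.8% of all genes did. Timp2 stood at 518 CPM at the Border against 221, 120 and 164 in the arrays, above all 3 of them, and was higher by 1.56 on the log2 scale (SE 0.27, adjusted p = 0.00115, edgeR). Mmp9 was higher by 6.59 (SE 0.59, adjusted p = 2.00e-07), at 239 CPM against 0, 0 and 3.53, and this rests on 1 cell. That cell had 12712 UMIs, with 195 of Mmp9, 368 of Ctsk, the bone-resorbing protease cathepsin K, and 274 of Acp5, tartrate-resistant acid phosphatase, genes known from osteoclasts. It had 25 UMIs of Csf1r, 16 of Mmp14 and 15 of Timp2, and none of C1qa, C1qb, S100a9, Csf3r or Cxcr2. It was singled out after its values were seen. Without it Mmp9 stood at 1.24 CPM and its change was -0.67 (adjusted p = 0.925), while that of Timp2 remained past the threshold (1.52, adjusted p = 0.00164).

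Mmp12 stood at 1332 CPM at this Border against 627, 618 and 869 in the arrays, above all 3, but missed the threshold (0.85, SE 0.25, adjusted p = 0.0673). It passed with library size in place of TMM (0.91, adjusted p = 0.0477) and with array 3 of Tumor 2 left out (1.04, adjusted p = 0.0332). Mmp13 stood at 161 against 171, 99.7 and 42.4, within the range of the arrays. Timp1 stood at 9.76 against 45.1, 39.9 and 21.2, a log2 change of -1.75 (SE 0.82, adjusted p = 0.335). C1q cells made up 72.7% of macrophage-like cells at the Border of Tumor 2 and 41.1% in its Whole Tumor, and alveolar cells 7.45% and 38.6%. The 23 macrophage markers took 443 of every 10000 UMIs of macrophage-like cells at this Border and 244 to 315 in the arrays, and their part in these changes was not tested. Within C1q cells alone, 0 of 6 genes were called by edgeR, 2 of 6 at an unadjusted p under 0.05, and 0.201% of all genes were called. Timp2 stood at 576 CPM at the Border against 148 to 401 in the arrays there, with a log2 change of 0.92 (SE 0.40, adjusted p = 0.521).

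**Figure D5:**
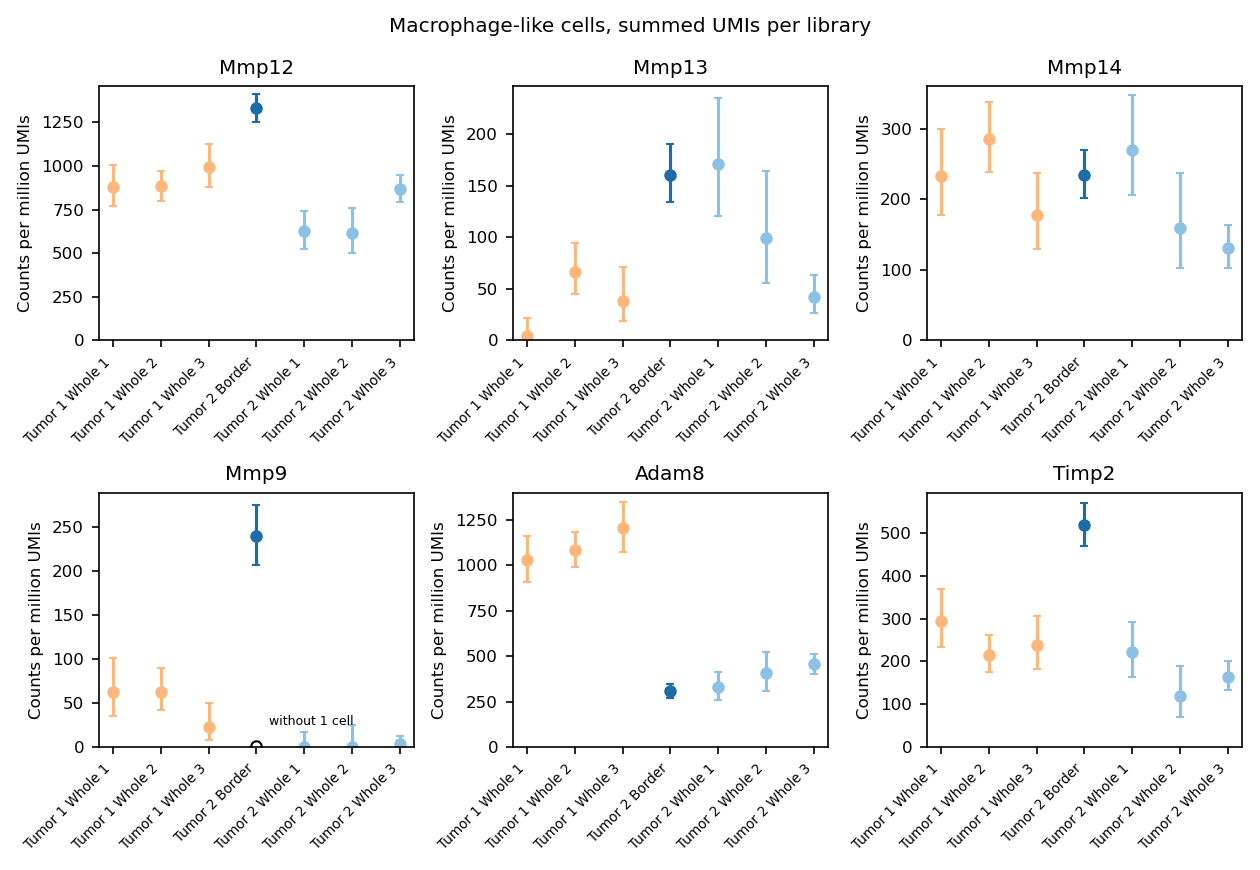
CPM (vertical axis) of 6 genes in the summed macrophage-like cells of the 7 libraries (horizontal axis) that had more than 2 such cells, orange for Tumor 1 and blue for Tumor 2, darker for the Healthy/Tumor Border; lines are exact 95% Poisson intervals and the open point leaves out 1 cell. The 3 arrays of Tumor 1 stand highest for Adam8, and the Border of Tumor 2 for Mmp12 and Timp2.

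Over all kept cells of a library, levels and the makeup of the sample are given side by side. Mmp12 stood at 877 CPM at the Border of Tumor 2 against 288, 313 and 333 in its arrays, and at 8.13 at the Border of Tumor 1 against 239, 206 and 267. Macrophage-like cells made up 31.8% of the cells at the Border of Tumor 2 against 16.2 to 21.2% in its arrays, and 0.323% at that of Tumor 1 against 13.4 to 15.1%. Mmp9 stood at 604 at the Border of Tumor 1 against 486 to 501, with 61.9% neutrophil-like cells against 26.3 to 50.5%. At the Border of Tumor 2 it stood at 200 against 128 to 170, and at 66.9 without the 1 cell. Timp3 was low at both Borders, at 13.8 against 21.0 to 28.8 in Tumor 1 and 17.8 against 53.4 to 92.7 in Tumor 2. Its main carriers were few at both Borders. Endothelial-like cells made up 0.161% of the cells at the Border of Tumor 1 against 0.523 to 0.924% in its arrays, and 0.198% at that of Tumor 2 against 2.13 to 3.26%, 1 cell at each Border. Fibroblast-like cells numbered 0 at the Border of Tumor 1 and 0, 10 and 5 in its arrays. At the Border of Tumor 2 they made up 1.19%, 6 cells, against 1.52 to 1.95%, below all 3 arrays but with overlapping counting intervals (0.436 to 2.56% at the Border). The source of a gene also changed: neutrophil-like cells held 89.1% of Mmp14 at the Border of Tumor 1 (83.8 to 93.1%), and macrophage-like cells held 87.7% at that of Tumor 2 (82.6 to 91.7%). With 1 Border library per tumor these totals were not tested.

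Other genes of the pathway were followed in 4 fixed lists of 54 genes. Of 17 other metalloproteinases, 2 reached 50 UMIs. Mmp19 had 1881 UMIs, 80.8% of them in macrophage-like cells, and Mmp25, a membrane-anchored metalloproteinase of leukocytes, had 257, with 54.1% in neutrophil-like cells. Between neutrophil-like and macrophage-like cells, Mmp19, the only one of the list tested, was lower in neutrophil-like cells by -4.33 on the log2 scale (adjusted p = 2.79e-05, edgeR). It stood at 22.1 CPM in neutrophil-like and 554 in macrophage-like cells. It passed the filter through the latter, so this call is no independent result. Of 13 other ADAM and ADAMTS proteases, 5 were tested, with 2 higher and 3 lower in neutrophil-like cells, where 46.2% of all genes differed, and a list median of -2.10 against -0.06 over all genes. Adam17, the main sheddase of TNF, was higher by 0.82 (adjusted p = 0.00671, and 0.0534 with library size) and Adam19 by 2.13 (adjusted p = 0.00221). Adam9, Adam10 and Adam15 were lower by -2.70, -2.78 and -2.10. Adam9 and Adam15 stood at 24.4 and 17.0 CPM in neutrophil-like cells. They passed the filter through macrophage-like cells, so their calls are no independent results. The matrix-cutting Adamts1 and Adamts4 belonged to the stroma, at 1308 and 1990 CPM in fibroblast-like cells and 817 and 897 in endothelial-like cells.

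Of 12 inhibitors, activators and partners, 7 were tested between the classes, with 2 higher and 1 lower in neutrophil-like cells and a list median of 0.35, so that the share called was close to the 46.2% of all genes. Lcn2, lipocalin 2, a protein of neutrophil granules, was higher by 6.27 (adjusted p = 3.72e-05, edgeR). It stood at 370 CPM in neutrophil-like and 4.37 in macrophage-like cells. It passed the filter through the former, so this call is no independent result. Furin, which cleaves the propeptide of Mmp14, was higher by 0.60 (adjusted p = 0.0444, and 0.193 with library size), and the clearance receptor Lrp1 was lower by -3.80 (adjusted p = 4.11e-06). At the Border of Tumor 1, 5 of the 7 tested were higher in neutrophil-like cells and none was lower, where 9.87% of all genes passed and 81.8% of these were higher, with a list median of 0.78 against -0.06 over all genes; with library size in place of TMM, 1 of 7 was, and the list median was 0.21. Lcn2 changed most among the 5, by 1.79 (adjusted p = 8.59e-07), and the others, Bsg, Cd44, Furin and Thbs1, by 0.76 to 0.84. At the Border of Tumor 2, where 9.24% of all genes passed, 3 of 7 did: Lcn2 (-2.75, adjusted p = 2.05e-07) and Thbs1 (-1.59, adjusted p = 4.12e-05) were lower and Lrp1 was higher (1.86, adjusted p = 0.0269). With library size, 5 of 7 passed there, with Bsg (0.86, adjusted p = 0.0494) and Furin (0.80, adjusted p = 0.0448) higher as well. Lcn2 passed in the same directions with library size (1.21 and -2.33), as it did among mature-type cells alone, where it was the only one of the 7 to pass in either tumor (2.21, adjusted p = 0.00976, in Tumor 1 and -1.90, adjusted p = 0.0453, in Tumor 2). Mmp25 was lower at the Border of Tumor 2 by -3.60 (adjusted p = 0.0170), where 1 of 2 other metalloproteinases tested passed against the same 9.24% of all genes, but not with library size (adjusted p = 0.0522).

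Of 12 matrix substrates that were in no gate, all reached 50 UMIs. Fibroblast-like cells held the most UMIs of 7, endothelial-like cells of 3 and macrophage-like cells of 2, namely Vcan (66.1%) and Lamc1 (62.4%). Neutrophil-like cells, the carriers of Mmp8 and Mmp9, led none of them. Lamc1, a laminin chain, was the only substrate tested between the classes and stood at 0.283 CPM in neutrophil-like and 249 in macrophage-like cells. It passed the filter through macrophage-like cells alone, so this is a description.

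The genes whose levels over the 11 classes were most like those of each member were found by Pearson's r of log2(CPM + 10), as a description. Mmp2 was most like Mfap4, Col1a1 and Col1a2 (r from 0.990 to 0.993), genes of fibroblasts. Timp3 was most like Sparc (0.989), Osmr and Hspb8. Mmp9 was most like Rab44 (0.962), Dmxl2 and Gpr84, and Adam8 like Tyrobp (0.972), an adaptor of myeloid receptors, Osm and Gpr35. Mmp13 was most like F13a1 (0.977), Clec4a3 and Cx3cr1, and Mmp12 like Tmem106a (0.932), Vdr and Aif1. Mmp8 was most like Gm20406, Gad1-ps and Gm15340. For Mmp14, Timp1 and Timp2 the closest were Ptges2, Crtap and Tspan4 (0.916, 0.953 and 0.939). The classes share libraries and differ in depth and cell number, and no test was made on 11 points.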

How the data were processed

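Single cells of 2 KP lung tumors were profiled by Seq-Well in 8 libraries. Per the labels and the methods of the study, the authors demultiplexed reads with bcl2fastq 2.17.1.14, aligned them to mm10 with STAR 2.5.2b by the Drop-seq protocol, and collapsed them by UMI. The deposited values are raw UMI counts per gene and barcode, from each array separately; the annotation version was not given in the sources used here. The 10 genes, the gene lists, the markers and the tests were chosen with earlier results of these data known.

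A cell needed at least 200 genes, which removed 449 of 4343 barcodes. A cell took the class with the highest sum of detected markers, each weighted by its rarity, if at least 2 were found and the runner-up stayed under 0.8 of the top; 328 cells lay within 0.1 of that limit. Of the markers, 149 genes were in the files. The authors' own cell assignments were not used here. Doublets were called with Scrublet in scanpy 1.11.5 and kept. UMIs were summed per library and class and tested with edgeR 4.0.16 in R 4.3.3 (filterByExpr, TMM, the quasi-likelihood test, p-values adjusted by Benjamini-Hochberg over all genes tested, threshold 0.05). Class comparisons took libraries with at least 20 cells of each class, with the library as a block. Border comparisons fitted the 4 combinations of tumor and region, with 4 residual degrees of freedom in neutrophil-like cells, all from technical arrays; the Border itself has 1 library per tumor. The scripts were tested on simulated data. The named genes are mainly the 10 members, the 3 genes most like each over the classes, and genes of the fixed lists. Not every list gene past the test is named, and Adamts1 and Adamts4 are named for their levels. Other named genes are markers, leading genes of a subclass, and neighbouring or overlapping genes. Those of the cell rich in Mmp9 were picked after its values were seen. Intervals on levels are exact Poisson and on shares exact Clopper-Pearson, both 95% and for counting error only. Promoters came from RefSeq (GRCm38.p6) and gene positions from GENCODE on GRCm38, the assembly of mm10. Alternatives were DESeq2 1.42.0, library size in place of TMM, no filter on low counts, at least 500 genes per cell, a stricter gate, no doublets, no library block, a replicate block, and each library left out; 63 cells with primer-like barcodes were kept and left out in an added alternative. Same-numbered arrays of the tumors did not deviate together, as given with the alternatives. An allele shared by all mice, a macrophage-like subclass and a marker are not reported here.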

Additional observations from a re-analysis of the deposited data

Results flagged for a closer look

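The level of Adam8 in neutrophil-like cells at the Healthy/Tumor Border, set against the Whole Tumor, moved in opposite directions in the tumors. Each Border is 1 library and the p-value rests on the spread between technical arrays, so the Border, the library and its cell makeup cannot be told apart. The change was 1.31 on the log2 scale in Tumor 1 and -1.52 in Tumor 2, and their difference was -2.83 (adjusted p = 2.27e-07, edgeR). It was past the threshold in 13 of 14 alternatives, with adjusted p from 1.55e-10 to 0.274, and missed it among mature-type cells alone (-1.40).

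The difference between neutrophil-like and macrophage-like cells changed from Tumor 1 to Tumor 2 for 3 genes. It changed by 5.66 for Adam8 (adjusted p = 7.40e-11), by -3.27 for Mmp14 (adjusted p = 0.000105) and by 2.16 for Timp2 (adjusted p = 0.00476), each by an interaction term in edgeR. The subclass makeup of both classes differed between the tumors, and its part in these changes was not tested.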

How the results depend on the processing

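Each tumor is 1 mouse, each Border 1 library, and the arrays are technical. Array 2 of Tumor 2 had the fewest UMIs. Of the single-gene values under the alternatives, 483 kept their direction and side of the threshold, 19 lost the threshold, 7 gained it and 18 turned; 86 counts of called genes stayed within 1.5 times and 19 did not. Where a value moved, the cause was not tested unless fewer cells or genes entered.

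Counts of called genes moved as follows. Between neutrophil-like and macrophage-like cells, 7 genes were called without the filter on low counts (main count 4). Between the neutrophil-like subclasses, 1 was called instead of 2 with DESeq2, without the filter, with at least 500 genes per cell and without the library block, and 1 to 2 with a library left out. At the Border in neutrophil-like cells, Tumor 1, Tumor 2 and their difference each gave 2 calls instead of 1 with library size (Mmp9 in Tumor 1, Mmp14 in the others) and 0 among mature-type cells alone; with at least 500 genes, Tumor 1 and Tumor 2 each gave 0 calls by edgeR (1 and 3 of 5 at an unadjusted p under 0.05). The difference gave 1 to 2 calls with a library left out, 2 without array 2 of Tumor 2, when Timp2 passed (-1.86, adjusted p = 0.0462). Between the tumors, 3 genes were called among mature-type cells and 4 to 5 with a library left out. In macrophage-like cells of Tumor 2, 1 gene was called with DESeq2 and without the cell rich in Mmp9, 0 within C1q cells, and 2 to 3 with a library left out.

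Directions turned for Adam8 between the classes without the library block (0.55), within Tumor 2 (1.77) and with a library left out (-0.91 to 0.51). They turned for Mmp9 between the subclasses with a library left out (-0.13 to 0.46) and for Mmp8 at the Border of Tumor 1 (-0.0096 to 1.49, and -2.63 among mature-type cells). With library size, Mmp14 and Timp2 turned at the Border of Tumor 1 (-0.0839 and -0.0826). Mmp9 turned in the difference with library size (0.80) and among mature-type cells (0.59), as did Mmp8 (2.60). In macrophage-like cells of Tumor 2, Mmp9 turned without the 1 cell (-0.67), and Mmp9, Mmp13 and Mmp14 turned within C1q cells (-1.47, -0.13 and -0.66). None of these passed the threshold in both settings. Mmp9 between the tumors lost the threshold without the filter (adjusted p = 0.1002), with at least 500 genes (0.193), among mature-type cells (0.1003) and without array 1 of Tumor 1, the Border of Tumor 2 or array 1 or 2 of Tumor 2 (0.0545 to 0.113).

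Scaling shifted the share of called genes that were higher from 47.6% with TMM to 16.1% with library size between the tumors, from 26.9% to 75.6% between the subclasses, and from 30.3% to 87.0% for the difference of the Border changes. With array number as a replicate block, 5 genes were called between the tumors, as without it (Adam8 4.50, Mmp8 5.86, Mmp14 -4.64, Timp2 2.20 and Mmp9 -0.67). Same-numbered arrays were correlated at r of -0.0138, -0.0120 and 0.000139, so the numbers pair nothing.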
